A study of Mus musculus with 6 samples.

Results

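Genes of the proteasome were read from 6 Clariom D Mouse arrays of mouse platelets and megakaryocyte progenitors. A gene was taken where a probe named exactly 1 symbol starting with Psma, Psmb, Psmc, Psmd, Psme, Psmf or Psmg followed by a number, and pseudogenes were left out. This gave 48 genes, each with 1 probe, of 30142 genes in all. They were 8 genes of the alpha ring, 4 non-catalytic genes of the beta ring, 6 catalytic beta genes, 6 ATPases of the regulatory particle, 11 of its other subunits, 3 activators, 7 assembly factors, 1 inhibitor, and 2 genes whose symbols match but whose products are not subunits, Psmc3ip and Psme3ip1. Of the genes in the rule's families, Psmb5 and Psme2 are not reported, because their 3 probes also named another gene.

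Platelets were isolated from blood, and progenitors from bone marrow. The mice had received PBS as the control, vesicles labelled CTC41-EVs, or vesicles labelled CTC41.5G-EVs, where EVs is read as extracellular vesicles and the line names are left unexplained by the labels. Every combination of cell type and treatment was 1 array of RNA that had been pooled over several mice, so there were no replicates. The labels do not state strain, age, mice per pool, dose, route or time.

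The proteasome degrades proteins that carry ubiquitin. Its core is a barrel of alpha rings, which gate the entry, and beta rings, of which some members cut the peptide chain. A regulatory particle, made of a base with a ring of ATPases and a lid, binds ubiquitin, removes it, unfolds the substrate and feeds it into the core. In immune cells, and after interferon, the catalytic subunits Psmb8, Psmb9 and Psmb10 can replace Psmb5, Psmb6 and Psmb7 to form the immunoproteasome, which favours peptides that fit MHC class I. Platelets have no nucleus and carry RNA received from the megakaryocyte, and proteasome inhibitors are known to lower platelet counts in patients.

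The deposited signals are log2 values, and all levels and differences below are on that scale. A floor of 4.23, the 50th percentile of all probes, was set on the mean over the 6 arrays, and 18875 genes passed it. The platelet arrays had median signals of 4.0 to 4.05 over all probes and the progenitor arrays 4.38 to 4.45. The median difference of all genes tested was -0.26, platelets minus progenitors, and it moved to 0.05 with quantile normalization, to 0.11 with the arrays brought to a common median (same-median scaling) and to 0.46 when the arrays were centred on the olfactory receptor genes. The share of all genes called higher in platelets was 16.2% and lower 25.7% as deposited, against 21.9% and 12.1%, 24.8% and 10.1%, and 40.4% and 5.46% under those settings. Markers moved with cell type as well. All 11 tested platelet and megakaryocyte markers were called higher in platelets, with a log2 summed signal of 14.03 to 14.56 against 9.16 to 9.28, and in progenitors 1 of the 11, Clec1b, had a mean below the floor. All 8 neutrophil markers were called lower, with 8.42 to 8.63 against 10.65 to 10.85. Erythroid markers summed to 10.18 to 10.3 against 7.34 to 7.37, with 2 of 3 tested genes, Alas2 and Slc4a1, called higher. Epor at -0.22 was not called, and Klf1 at -0.03 lay below the floor. Alas2, at 9.82 to 9.88 in platelets, carried the platelet sum. Of 4 tested monocyte and dendritic markers, Lyz2 was called higher (2.94) and the other three were not called (Csf1r 0.0, Cd68 -0.27 and Itgax -0.34), and Lyz2 carried the list's sum, 9.94 to 10.17 against 7.96 to 7.99, where the list's median was 0.03. Lymphoid markers summed to 8.15 to 8.19 against 8.46 to 8.5, with 2 of 5 called lower, and progenitor markers to 6.75 to 6.8 against 7.31 to 7.61, with 2 of 4 called lower. Their part in the differences of the proteasome genes was not tested. In such pools, fewer cells of a type and less RNA per cell cannot be told apart.

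The first comparison asked how proteasome transcripts differed between platelets and progenitors over the 3 treatments. Psme3, the gene of the nuclear activator REG gamma, was the gene furthest above progenitors, at 11.8-fold, and 13 further members were called higher, among them 4 genes of the alpha ring, Psmb1 and Psmb4 of the beta ring, and Psmd11, Psmd8 and Psmd4 of the regulatory particle. The 3 genes of the immunoproteasome were not called. Psmb11, the thymus-type catalytic subunit, was the single member called lower. A call needed an adjusted p of at most 0.05 in limma, with Benjamini-Hochberg adjustment over all genes tested, and at least a 1.5-fold difference.

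Of the 48 members, 45 passed the floor, and 14 of these (31.1%) were called higher in platelets, against 16.2% of all genes tested. The 1 member called lower (2.22%) stood against 25.7% of all genes. Adjusted p for the 14 lay between 2.26e-06 and 0.00485, and 10 of them were at least 2-fold higher. A further 11 members passed the p threshold upwards and 2 downwards (Psmb3 and Psmd3) with less than 1.5-fold. The other 17 did not pass it and had differences from -0.13 to 0.23. The median difference of the 45 was 0.36, against -0.26 for all genes tested, a distance of 0.63, which was 0.60 to 0.63 under the other scalings. This distance was not seen among high signals. When the floor was raised to the 90th percentile, 5.87, 13 members remained, 6 of them (46.2%) were called higher and none lower, against 46.6% and 22.3% of all genes, and the medians were 0.51 and 0.45. The members' share was then near that of all genes.

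Without a floor, 16 of the 48 (33.3%) were called higher, against 11.4% of all genes, and 1 lower, against 23.3%. Psmc6 and Psme4 were the genes added, and both had lain below the floor with Psma8. In 30 of the 45 members tested, every platelet array lay above every progenitor array, which held for 24.2% of all genes. In 3 members, Psmb3, Psmb11 and Psmd3, every platelet array lay below, which held for 54.2% of all genes, and in 12 the cell types overlapped. Counted by treatment, 34 of the 48 were higher in platelets in all 3 pairs of arrays, 5 were lower in all 3 and 9 were mixed. The same count was not made over all genes, so it is not read as a trait of the members. The median member difference was 0.52 between the PBS arrays, 0.36 between the CTC41-EVs arrays and 0.24 between the CTC41.5G-EVs arrays, where all genes had -0.23, -0.21 and -0.32.

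**Figure D1:**
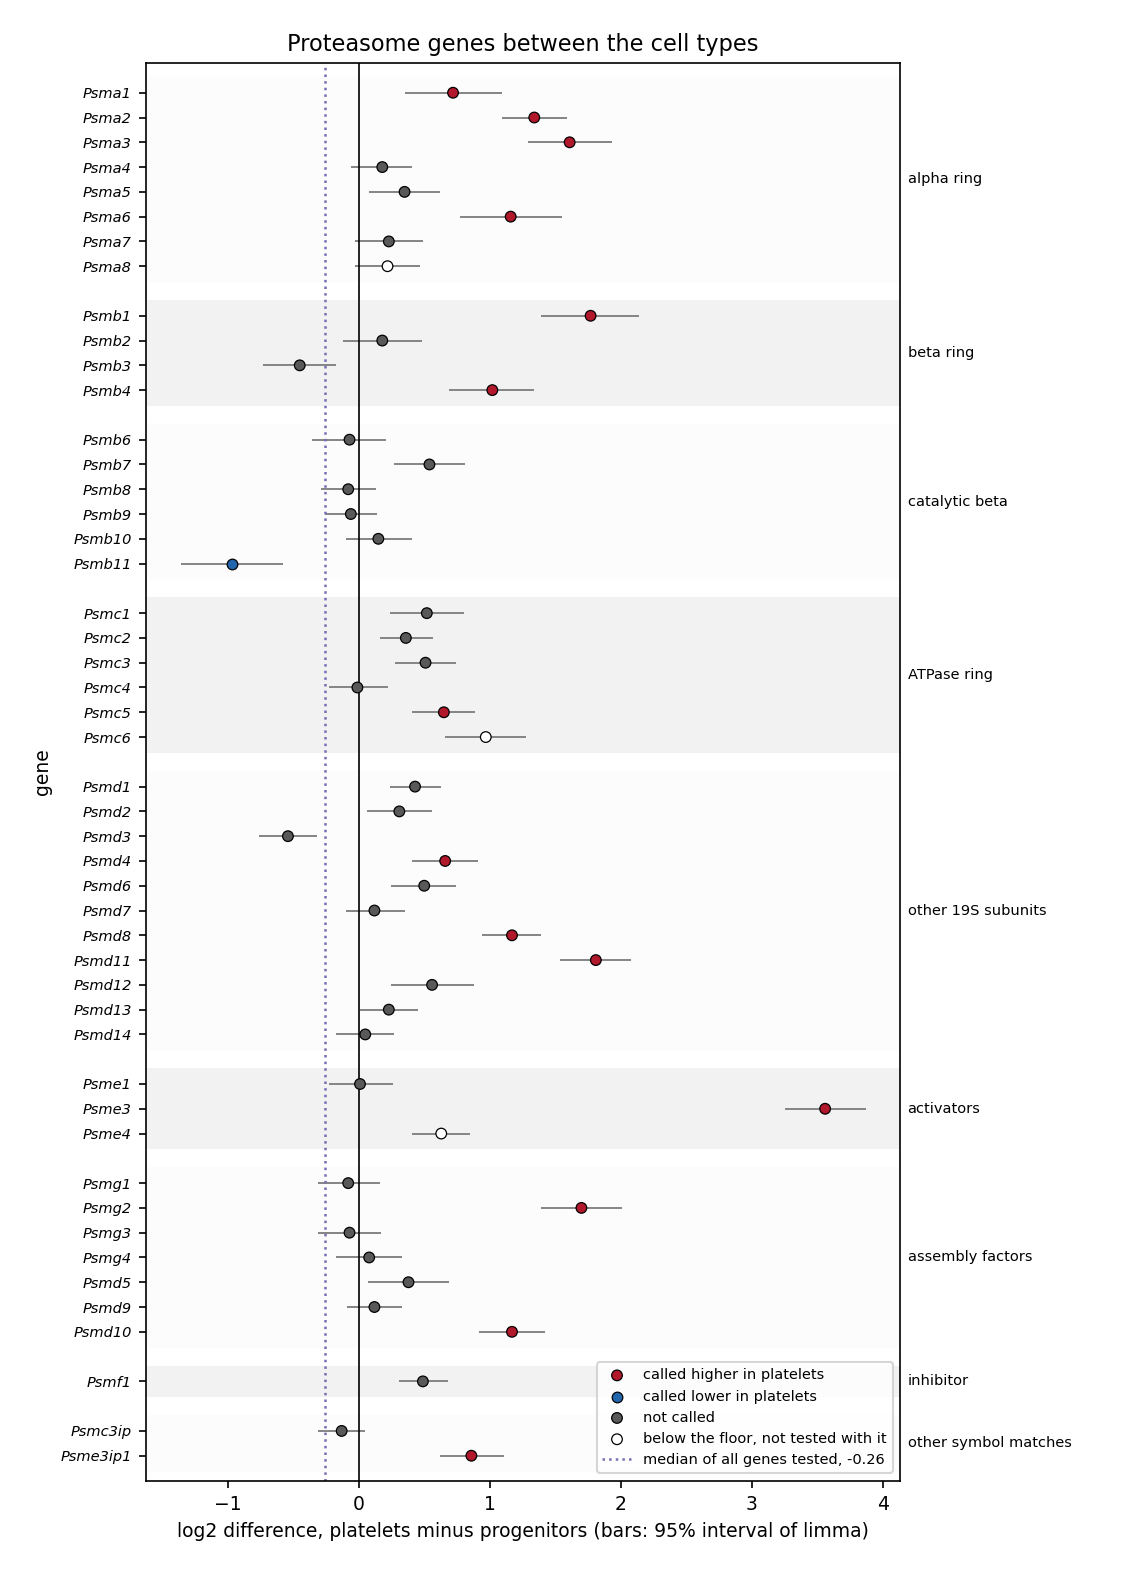
Log2 difference, platelets minus progenitors, of each of the 48 proteasome genes on the horizontal axis, with genes grouped by role on the vertical axis. Points are limma estimates over 3 arrays per cell type, bars are 95% intervals, filled colours mark calls, open points mark genes below the floor, and the dotted line is the median of all genes tested, -0.26. Psme3 stands alone at 3.56, most other genes lie between 0 and 2, and the genes left of 0 other than Psmb11 moved to the right of 0 with olfactory receptor centring.

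Promoter stretches of members with a large difference, and of others that were not called, are shown here because proteasome genes are known to share upstream elements. Windows of 250 bases before the gene's start were taken from RefSeq, build GRCm38.p6, which held 40 of the 48 members and 27025 genes, and each motif was searched on both strands. CCAAT, the box bound by NF-Y, was in 16 of 40 members (40%) and in 37.5% of all genes with a window. The median difference between the cell types was 0.59 over the members with it and 0.33 over those without it, which is a description with no test. TGACNNNGC, the core of the antioxidant response element through which Nfe2l1 and Nfe2l2 act, was in 4 of 40 (10%) and in 11.5% of genes. GAAANNGAA, a core of the interferon-stimulated response element, was in 3 (7.5%) against 8.18%, and TTCNNNGAA, the core of the gamma-activated site, in 2 (5%) against 8.13%. The members' shares were thus near those of all genes for these motifs. Each sequence is written along its gene's strand with up to 15 bases on either side, and capitals mark the motif or its reverse complement. Psme3, the largest difference, had a CCAAT box 14 bases before its start at chr11:101316184-101316212 on the plus strand, and Psmb9, not called as deposited, had one 8 bases before its start at chr17:34187331-34187353 on the minus strand. Psmc6 (chr14:45329582-45329620, plus strand) and Psmb6 (chr11:70525333-70525356, plus strand) held the antioxidant core, and Psmb8 (chr17:34198083-34198121, plus strand) held the gamma-activated core.
Psme3, CCAAT: cccggagtgccggcgATTGGctgtgacgc
Psmb9, CCAAT: cgcgcgcagccgctgATTGGaaa
Psmc6, antioxidant core: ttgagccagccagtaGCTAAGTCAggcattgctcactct
Psmb6, antioxidant core: gcggactaaagagagTGACGGAGC
Psmb8, gamma-activated core: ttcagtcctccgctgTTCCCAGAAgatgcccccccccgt

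A match is a description of these letters and not a site of binding.

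The alpha ring, which closes the barrel and docks the regulators, had 4 of its 7 tested genes called higher, a median of 0.54 over all 8, and no gene below 0. Counts called by role, here and below, stand beside 16.2% higher and 25.7% lower of all genes tested. The roles are too small to be set against those shares or against each other. Signals of a cell type are always given for PBS first, then for CTC41-EVs, then for CTC41.5G-EVs. Psma3 read 6.69, 6.44 and 6.76 in platelets, and 4.83, 5.18 and 5.05 in progenitors. Each platelet array lay above each progenitor array, and the difference was 1.61 (SE 0.14, 3.06-fold, adjusted p = 5.66e-05). Psma2 read 6.06, 5.67 and 5.74 in platelets and 4.47, 4.41 and 4.58 in progenitors. The cell types again did not overlap, and the difference was 1.34 (SE 0.10, 2.53-fold). Psma6 at 1.16 (SE 0.17) and Psma1 at 0.72 (SE 0.16) were also called, and they are named here after their values were seen. Psma1 had the largest spread of any member over the platelet arrays, 5.32, 4.70 and 4.97, and without either PBS array its difference was 0.47, under 1.5-fold. Psma5 passed the p threshold at 0.35, while Psma4 at 0.18, with a progenitor mean of 4.2 below the floor, and Psma7 at 0.23 did not. Psma8, the testis-type alpha subunit, lay below the floor on all 6 arrays, at 2.99 to 3.37.

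The non-catalytic genes of the beta ring went different ways. Psmb1 read 7.28, 6.91 and 7.10 in platelets and 5.09, 5.47 and 5.44 in progenitors, a difference of 1.77 (SE 0.16, 3.40-fold, adjusted p = 7.67e-05). Psmb4 read 6.57, 6.38 and 6.61 in platelets and 5.23, 5.65 and 5.62 in progenitors, a difference of 1.02 (SE 0.14, 2.02-fold). In both genes the PBS array was the lowest of the progenitors, and neither overlapped. Psmb3 read 5.71, 5.43 and 5.77 in platelets and 5.94, 6.11 and 6.21 in progenitors. It was below progenitors in each pair, with a difference of -0.45 (SE 0.12, adjusted p = 0.0108) that was under 1.5-fold, became -0.31 and -0.08 with quantile and same-median scaling, and turned to 0.27 with olfactory receptor centring. Psmb2 overlapped, with a difference of 0.18 (95% interval -0.12 to 0.48).

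The catalytic genes showed no gene called higher. Psmb6, the caspase-like subunit of the constitutive core, read 5.95, 5.67 and 5.83 in platelets and 5.75, 5.88 and 6.04 in progenitors. The arrays overlapped, and the difference was -0.07 (95% interval -0.36 to 0.21). Psmb7, the trypsin-like subunit, read 5.76, 5.36 and 5.56 in platelets and 4.93, 4.96 and 5.17 in progenitors. The cell types did not overlap, and the difference of 0.54 (SE 0.11, 1.45-fold, adjusted p = 0.00402) passed the p threshold but stayed under 1.5-fold. It was 0.61, and called, without an array of either vesicle treatment, and 0.39 without either PBS array. In this model both arrays of a treatment give the same estimate when left out, so they are not separate checks.

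The immunoproteasome genes lay at almost the same deposited signal in both cell types. Psmb8 read 5.35, 5.25 and 5.38 in platelets and 5.37, 5.44 and 5.40 in progenitors, a difference of -0.08 (95% interval -0.29 to 0.13, adjusted p = 0.454). Psmb9 read 5.12, 5.18 and 5.15 in platelets and 5.24, 5.14 and 5.25 in progenitors, a difference of -0.06 (95% interval -0.26 to 0.14, adjusted p = 0.552). Psmb10 read 6.07, 5.94 and 6.18 in platelets and 5.78, 5.88 and 6.07 in progenitors, a difference of 0.15 (95% interval -0.10 to 0.41, adjusted p = 0.228). In all 3 the arrays of the cell types overlapped, and the intervals excluded a 1.5-fold difference at the deposited scaling. That statement depends on the scaling, because Psmb8 became 0.64, Psmb9 0.66 and Psmb10 0.87, each called higher, with olfactory receptor centring. Quantile normalization gave 0.21, 0.26 and 0.26, and none was called.

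Psmb11, known as the catalytic subunit of the thymic cortex, read 4.29, 3.76 and 3.91 in platelets and 4.73, 5.01 and 5.13 in progenitors. Its difference was -0.97 (SE 0.17, 1.96-fold, adjusted p = 0.0015), and it is named after its value was seen. Its platelet mean of 3.98 lay below the floor, and measured from the floor the difference was -0.73. With olfactory receptor centring it was -0.25 and no longer called. Without either PBS array a second member was called lower, Psmd3 at -0.63, which was -0.48 without either CTC41.5G-EVs array.

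**Figure D2:**
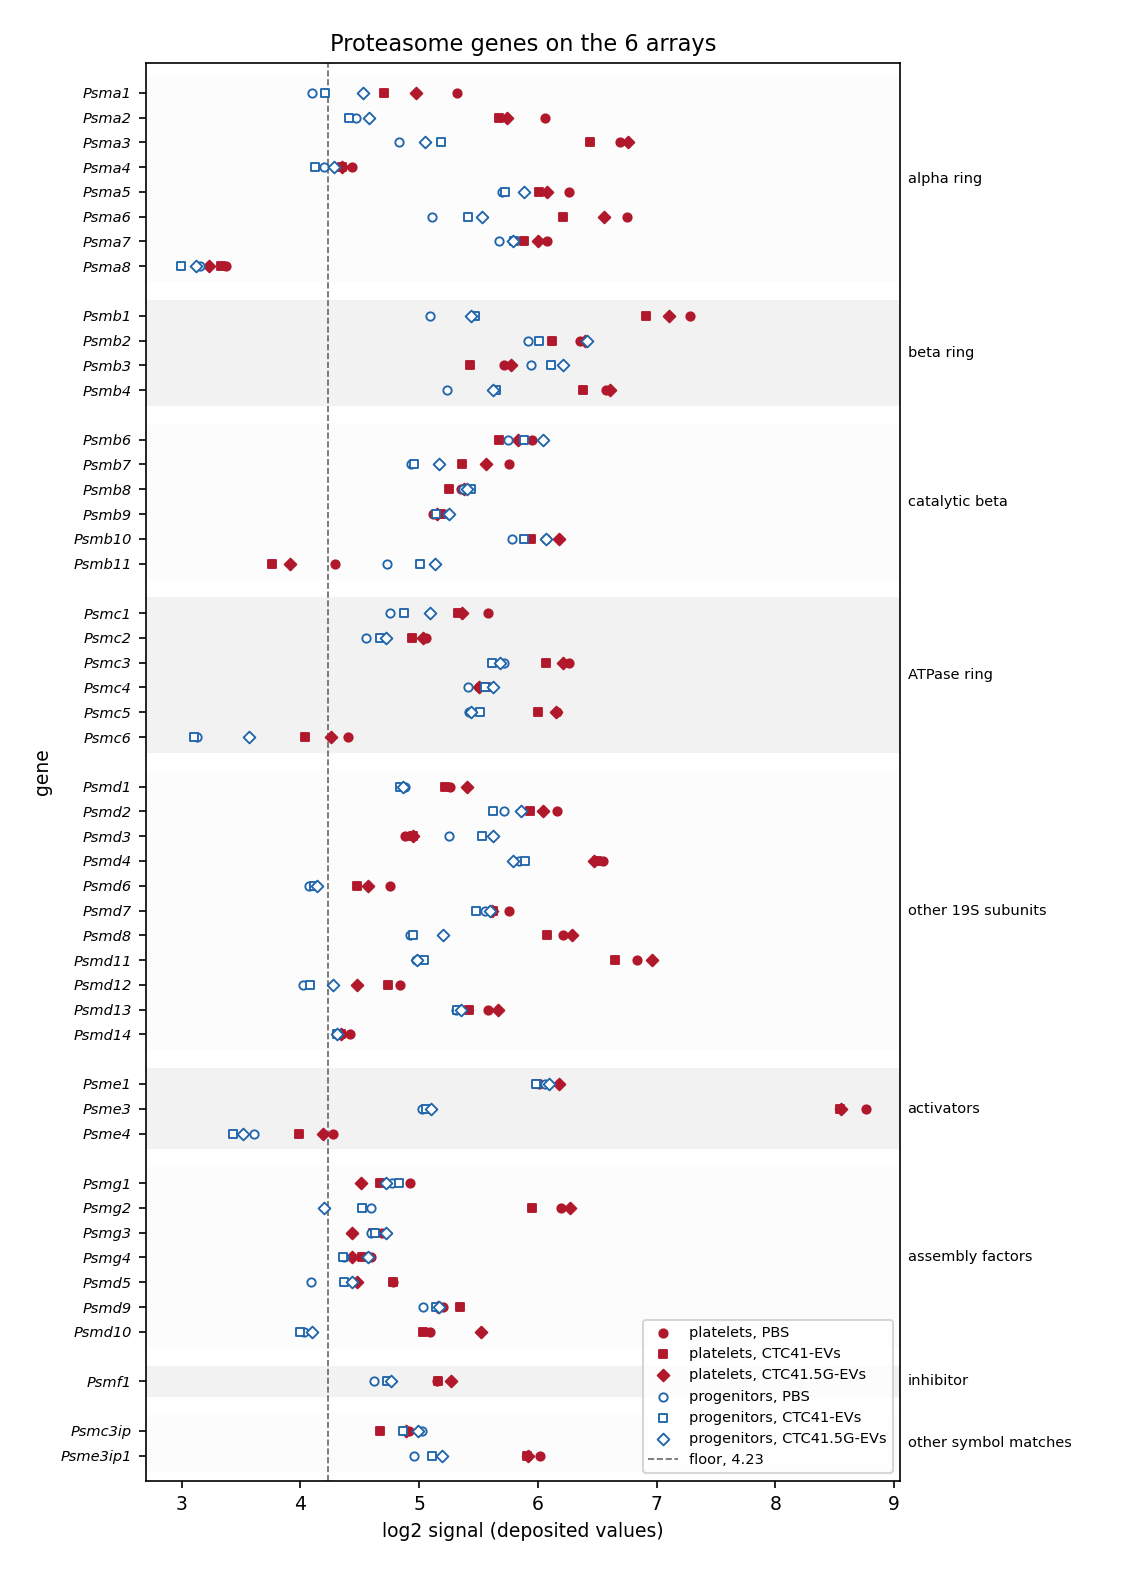
Log2 signal of the 48 proteasome genes on each of the 6 arrays on the horizontal axis, with genes grouped by role on the vertical axis. Filled red symbols are platelets, open blue symbols progenitors, the shape gives the treatment, each point is 1 array, and the dashed line is the floor of 4.23. Psme3 is the gene with the widest gap, 8.54 to 8.76 against 5.02 to 5.10, and the symbols of Psmb8 and Psmb9 fall together between 5.12 and 5.44. Signals of different probes are not comparable with each other.

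In the ring of ATPases, which unfolds the substrate, 1 of 5 tested genes was called and 5 of 6 differences were above 0, with a median of 0.52. Psmc5 read 6.16, 6.0 and 6.15 in platelets and 5.42, 5.51 and 5.44 in progenitors, a difference of 0.65 (SE 0.10, 1.57-fold, adjusted p = 0.00108). Psmc6 read 4.40, 4.04 and 4.26 in platelets and 3.13, 3.10 and 3.57 in progenitors, so that its mean lay below the floor. Without a floor its difference was 0.97 (SE 0.13, adjusted p = 0.000854), a size that depends on background in progenitors, since the platelet mean of 4.24 lay only 0.01 above the floor. Psmc1, Psmc2 and Psmc3 passed the p threshold at 0.52, 0.36 and 0.51. Psmc1 was called at 0.65 without either CTC41.5G-EVs array, and was 0.37 without either PBS array. Psmc4 read 5.50, 5.56 and 5.50 in platelets and 5.41, 5.55 and 5.62 in progenitors, a difference of -0.01 (95% interval -0.23 to 0.22). The ring thus held 1 gene with overlapping cell types among 5 that did not overlap.

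Of the 11 other subunits of the regulatory particle, 3 were called higher and none lower, with a median of 0.43. Psmd11, a scaffold of the lid, read 6.83, 6.65 and 6.96 in platelets and 4.97, 5.04 and 4.98 in progenitors, a difference of 1.81 (SE 0.11, 3.51-fold, adjusted p = 1.5e-05). Psmd8, also of the lid, read 6.21, 6.08 and 6.29 in platelets and 4.92, 4.95 and 5.20 in progenitors, a difference of 1.17 (SE 0.10, 2.24-fold). Neither overlapped. Psmd4, a ubiquitin receptor, was called at 0.66 (SE 0.11) and is named after its value was seen. Psmd3, another lid scaffold, read 4.88, 4.95 and 4.95 in platelets and 5.25, 5.53 and 5.62 in progenitors. Every platelet array lay below every progenitor array, and the difference was -0.54 (SE 0.09, 1.45-fold, adjusted p = 0.0016), which shrank to -0.22 and -0.16 with quantile and same-median scaling and turned to 0.18 with olfactory receptor centring. Psmd12 passed the p threshold at 0.56, was called at 0.74 without either CTC41.5G-EVs array, and was 0.44 without either PBS array. Its progenitor mean of 4.12 lay below the floor, and measured from the floor the difference was 0.46. Psmd14, the deubiquitinase of the lid, differed by 0.05 (95% interval -0.17 to 0.27). Its means, 4.36 in platelets and 4.31 in progenitors, lay close to the floor of 4.23, which limits the reading of that value. The 8 lid genes matched by symbol spanned a range from -0.54 to 1.81, and 2 of them were called. Sem1, a lid subunit outside the symbol rule, is given below with the other genes of the pathway. Of the 9 genes of the base 8 were above 0, and 2 of its 8 tested genes were called. With so few genes, these counts cannot show whether lid and base differ.

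Among the activators, alternatives to the regulatory particle, the 3 measured genes differed widely. Psme3 read 8.76, 8.54 and 8.55 in platelets and 5.02, 5.06 and 5.10 in progenitors. These were 8.62 ± 0.12 (SD, n = 3) and 5.06 ± 0.04, and the difference was 3.56 (SE 0.13, adjusted p = 2.26e-06). Each treatment pair gave a similar value, 3.74, 3.48 and 3.45. Psme1, a subunit of the interferon-inducible activator, read 6.01, 5.99 and 6.18 in platelets and 6.06, 5.98 and 6.09 in progenitors. The arrays overlapped, and the difference was 0.01 (95% interval -0.23 to 0.26). Psme4 read 4.27, 3.99 and 4.19 in platelets and 3.61, 3.43 and 3.52 in progenitors and lay below the floor. Without a floor its difference was 0.63 (SE 0.09, adjusted p = 0.00125), with both means below the floor.

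Assembly factors, which escort rings and base into place and leave the mature particle, had 2 of 7 genes called. That stands beside 16.2% of all genes tested called higher, with too few genes to set against it. Psmg2, a chaperone of the alpha ring, read 6.19, 5.95 and 6.27 in platelets and 4.59, 4.52 and 4.20 in progenitors, a difference of 1.70 (SE 0.13, 3.24-fold, adjusted p = 3.67e-05). Its partner in the same dimer, Psmg1, read 4.92, 4.67 and 4.51 in platelets and 4.77, 4.83 and 4.72 in progenitors, a difference of -0.08 (95% interval -0.31 to 0.16). The 95% interval of Psmg2, 1.39 to 2.01, thus lay apart from that of its partner. Psmg3 read 4.69, 4.61 and 4.43 in platelets and 4.59, 4.63 and 4.72 in progenitors, and its partner Psmg4 differed by 0.08. Psmd10, the base chaperone gankyrin, read 5.09, 5.03 and 5.52 in platelets and 4.03, 4.0 and 4.10 in progenitors, a difference of 1.17 (SE 0.11, 2.25-fold). Its progenitor mean lay below the floor, and measured from the floor the difference was 0.99. The other base chaperones had 0.38 (Psmd5, which passed the p threshold) and 0.12 (Psmd9).

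Psmf1, an inhibitor of the core, read 5.15, 5.16 and 5.27 in platelets and 4.62, 4.73 and 4.76 in progenitors. The cell types did not overlap, and the difference of 0.49 (SE 0.08, 1.41-fold, adjusted p = 0.00109) stayed under 1.5-fold. Of the symbol matches that are not subunits, Psme3ip1, whose product binds Psme3, read 6.02, 5.91 and 5.92 in platelets and 4.96, 5.11 and 5.19 in progenitors, a difference of 0.86 (SE 0.10, 1.82-fold, adjusted p = 0.000282). Psmc3ip, a meiotic recombination factor, read 4.91, 4.67 and 4.89 in platelets and 5.02, 4.86 and 4.99 in progenitors, overlapping, with a difference of -0.13 (95% interval -0.31 to 0.05).

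The other genes of the pathway were taken from a list of 42 symbols, of which 28 were found and 22 tested. There 11 of the 22 were called higher, 1 lower and 10 not, beside 16.2% higher and 25.7% lower of all genes tested. The median was 0.45 over the 28, which included 6 genes below the floor, against -0.26 for all genes tested. All 4 tested cofactors of the core and regulatory particle were called higher, a group too small to set against that share. The other 4 of the 8 found lay below the floor, with Uchl5 at 1.23, Ecpas at 0.67, Ube3c at 0.19 and Usp14 at -0.06 without it. Akirin2 (1.4, SE 0.09) and Txnl1 had progenitor means below the floor, 4.2 and 4.18, and passed it through their platelet signal. Sem1, a small lid subunit, read 7.15, 6.70 and 7.33 in platelets and 4.40, 4.32 and 4.06 in progenitors, a difference of 2.80 (SE 0.16). Pomp, the maturation factor of the core, read 7.07, 6.72 and 7.32 in platelets and 4.85, 5.15 and 5.19 in progenitors, a difference of 1.97 (SE 0.15). In both the CTC41-EVs array was the lowest of the platelets, and neither overlapped. Txnl1, a thioredoxin bound to the regulatory particle, differed by 1.58 (SE 0.16), with a progenitor mean of 4.18 below the floor and a difference of 1.53 measured from it.

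Of 10 genes for ubiquitin shuttles and the unfoldase complex, 6 were called higher and none lower, beside the same 16.2% and 25.7%, led by Nploc4 (1.85, SE 0.11), Ubqln2 (1.50, SE 0.15) and Vcp (1.29, SE 0.10). The transcription factor genes Nfe2l1 and Nfe2l2 and the gene of the enzyme that processes Nfe2l1, Ngly1, passed the p threshold at 0.37, 0.38 and 0.48 but were under 1.5-fold. Among 5 tested genes that supply MHC class I with peptide, B2m, the light chain, was called higher at 5.86 (SE 0.21). Tap1, a subunit of the peptide transporter, read 4.92, 5.15 and 5.04 in platelets and 5.68, 5.77 and 6.02 in progenitors and was called lower at -0.79 (SE 0.10). Tap1 was no longer called with quantile normalization (-0.54), same-median scaling (-0.41) or olfactory receptor centring (-0.07). The transporter's other gene, Tap2, was at -0.37, under 1.5-fold, and Tapbp at -0.04.

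**Figure D3:**
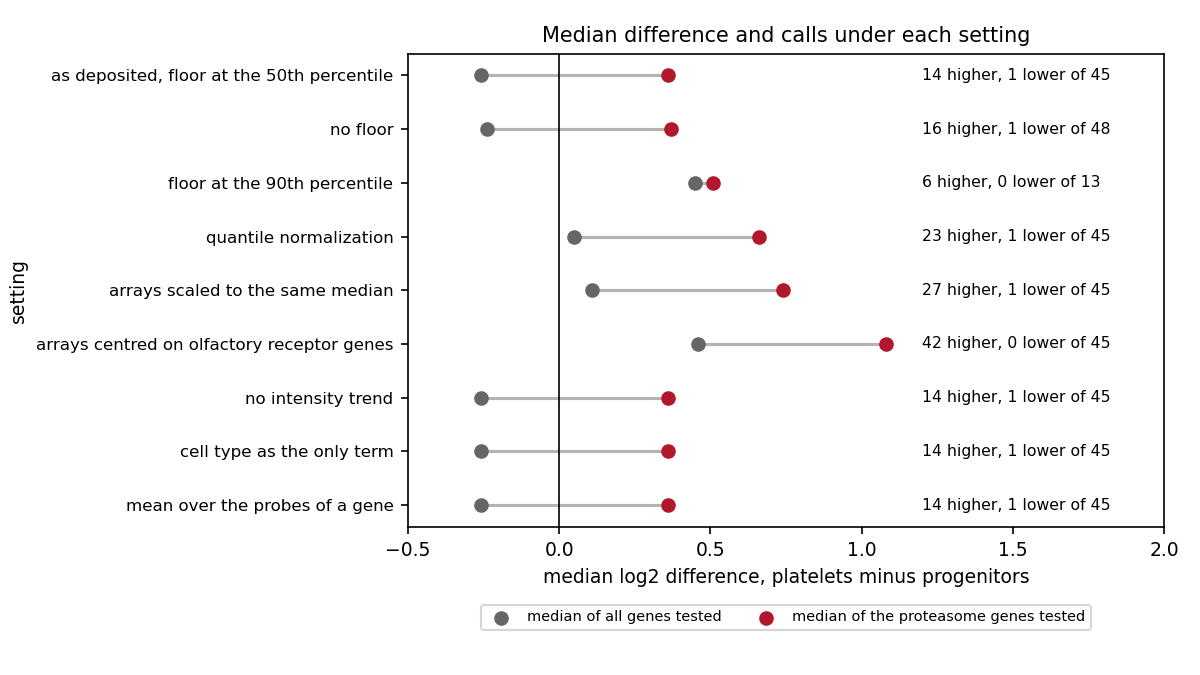
Median log2 difference, platelets minus progenitors, on the horizontal axis for the proteasome genes tested (red) and all genes tested (grey), under each setting on the vertical axis, with the members called at the right. Both medians shift together when the scaling changes, from 0.36 and -0.26 as deposited to 1.08 and 0.46 with olfactory receptor centring, and they come close, 0.51 and 0.45, under the highest floor.

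The second set of comparisons asked whether proteasome transcripts differed between mice given vesicles and mice given PBS. Within a cell type each of them sets a single array against a single array, and no test can be made. Members entered with a mean over the 3 arrays of the cell type of at least 5.07, the 75th percentile, which held 32 members in platelets and 22 in progenitors, beside 8247 and 10858 genes. None of them reached 1.5-fold in any of the 6 comparisons. The comparisons with PBS share the PBS array, and those with CTC41-EVs share that array, so they are not independent of each other.

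In platelets, CTC41-EVs against PBS left 28 of 32 members (87.5%) lower, against 61.1% of all genes, with a median of -0.19 against -0.06. At least 1.5-fold, 0.449% of all genes were higher and 2.34% lower, and no member was in either count. The largest members were Psma6 at -0.54, Psmb7 at -0.39 and Psma2 at -0.39. Upwards the largest were Psmd9 at 0.14, Psmb9 at 0.06 and Psmc4 at 0.05. Over all 48 members, those below this floor included, all 8 alpha ring genes (median -0.25) and all 4 non-catalytic beta ring genes (-0.36 to -0.19) were lower. Of the immunoproteasome genes 2 of 3 were lower, between -0.13 and 0.06. Psma1, with a platelet mean of 5.00 under this floor, was lower by 1.5-fold, at -0.62, and was the single one of the 48 to reach that size. For scale, the residual SD that limma pulls towards that of other genes corresponded to a spread of 0.18 for a difference of 2 arrays at the median member. It is not the spread of Psma1 or Psma6, which is larger. Their SEs between the cell types, 0.16 and 0.17, were among the largest of the members. Those SEs compare 3 arrays with 3, so they are not on the scale of the 0.18, and a difference of 2 single arrays spreads more widely.

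In progenitors the same comparison had 17 of 22 members higher and 5 (22.7%) lower, against 37.3% of all genes below 0. The median was 0.10 against 0.04 for all genes, of which 3.09% were at least 1.5-fold higher and 0.101% lower. The largest members upwards were Psmb4 at 0.42, Psmb1 at 0.39 and Psma6 at 0.30, and downwards Psmc3 at -0.11, Psmb9 at -0.10 and Psmd2 at -0.08. The 4 non-catalytic genes of the beta ring were all higher, with a median of 0.28.

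For CTC41.5G-EVs against PBS in platelets, 17 of 32 members (53.1%) were lower against 48.6% of all genes, with a median of -0.01 against 0.01. Over all 48 members, those below this floor included, 32 were lower and 16 higher, with a median of -0.08, and with the floor at the 50th percentile 29 of 45 were lower, against 49.9% of genes. At least 1.5-fold, 0.643% of all genes were higher and 1.31% lower. Psmd10 was highest at 0.43, followed by Psme1 at 0.17 and Psmd1 at 0.14, and Psma2 was lowest at -0.32, before Psmc1 at -0.22 and Psme3 at -0.21. In progenitors 20 of 22 members were higher and 2 (9.09%) lower, against 25.1% of all genes below 0, with a median of 0.17 against 0.13. There 5.47% of all genes were at least 1.5-fold higher and 0.746% lower. Psmb2 at 0.49, Psma6 at 0.42 and Psmb4 at 0.39 were the highest, and Psmd4 at -0.05 and Psmc3 at -0.03 the only ones below 0. The median of the members in progenitors thus lay close to that of all genes. The split of 20 higher and 2 lower depended on the scaling. With quantile normalization 7 of 19 members were below 0, against 45.3% of genes. With same-median scaling 7 of 19 were below 0, against 37.2%, and with olfactory receptor centring 5 of 15, against 35.4%.

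CTC41.5G-EVs against CTC41-EVs had 27 of 32 members higher in platelets and 5 (15.6%) lower, against 39% of all genes below 0, with a median of 0.15 against 0.07. All genes had 2.79% at least 1.5-fold higher and 0.885% lower. Psmd10 was again the highest at 0.49, before Psma6 and Psmb3, both at 0.34. Downwards the largest were Psmd9 at -0.18, Psmc4 at -0.05 and Psmd4 at -0.03. In progenitors 16 of 22 were higher and 6 (27.3%) lower, against 31.5% below 0, with a median of 0.09 against 0.08. There 0.608% of all genes were at least 1.5-fold higher and 0.783% lower. Psmb2 at 0.40, Psmd2 at 0.24 and Psmb10 at 0.19 led upwards, and Psmd4 at -0.11, Psmc5 at -0.06 and Psmb1 at -0.04 downwards.

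**Figure D4:**
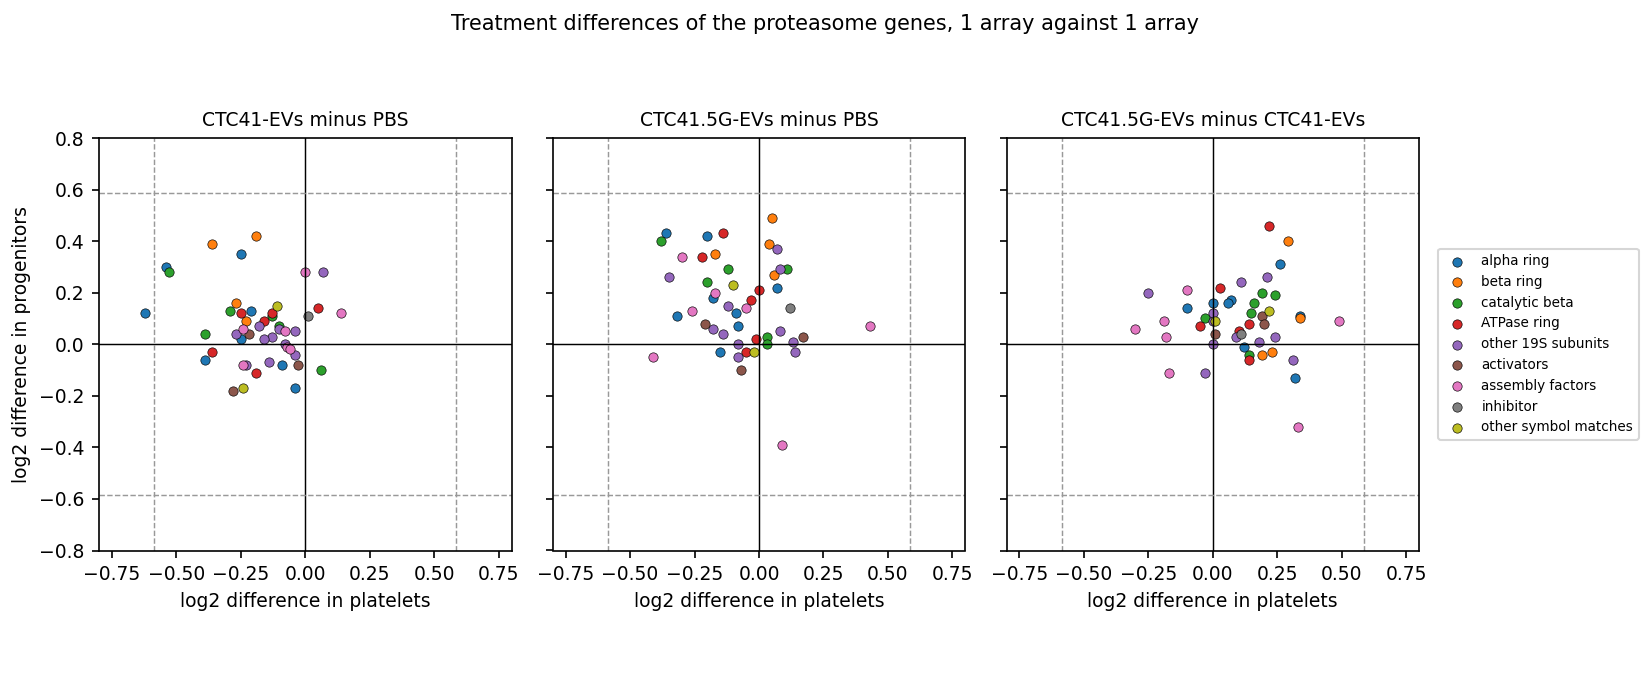
Log2 differences between treatments in platelets (horizontal axes) and progenitors (vertical axes) for all 48 proteasome genes, 1 panel per pair of treatments, coloured by role, with dashed lines at 1.5-fold. Each point is 1 array minus 1 array with no error estimate, and the panels share arrays. In the first panel most points lie left of 0, and Psma1 at -0.62 is the single point past a dashed line in the 3 panels.

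Averaged over both cell types in the additive limma model, 0 of the 45 members tested were called in each of the 3 treatment comparisons, as were 0% of all genes. At an unadjusted p under 0.05 there were 0 members in each, beside 3.06%, 6.2% and 6.13% of all genes for CTC41-EVs against PBS, CTC41.5G-EVs against PBS and CTC41.5G-EVs against CTC41-EVs. The lowest adjusted p of a member was 1.0, 0.804 and 0.814. Psmb2 was the member highest in the comparisons of CTC41.5G-EVs, at 0.27 and 0.34, and Psmg1 the lowest, at -0.23 and -0.14. For CTC41-EVs against PBS the range was from -0.25 (Psma1) to 0.17 (Psmd3). Median member differences were -0.05, 0.03 and 0.08, against 0.01, 0.06 and 0.04 for all genes. The model's residual holds array noise together with any effect that differs between the cell types, and with 2 residual degrees of freedom a p that misses the threshold does not show that treatments acted alike.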

How the data were processed

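RNA of 6 pools was hybridised to Clariom D Mouse arrays, 1 per cell type and treatment. The deposited values are log2 signals, from 0.23 to 14.06; per the submitters' processing notes the authors made them with Affymetrix Expression Console 1.4.1.46. The series text names MAS5.0 instead, so the scaling is not settled, and no label names the genome build. Per the labels' protocols, some pools may have been cleared of leukocytes and erythrocytes with beads, without saying which, and RNA amounts and kits are given in 2 versions.

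Of 72688 probes, 30604 named 1 symbol and were used, 2146 named several and 39938 none; 22818 matched the RefSeq table of GRCm38.p6 by Entrez identifier. Values were used as deposited, with no pseudocount. Cell type was tested with limma 3.58.1 (R 4.3.3) over all 18875 genes past the floor, with additive terms for cell type and treatment and an intensity trend. The fit was tested on simulated data. The arrays of a cell type differ in treatment and are not replicates of a condition, so p-values measure the spread between these arrays alone; their number limits the precision.

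The members and lists were chosen with earlier results of these data known. Named with all array values were the immunoproteasome genes, their counterparts, the activators and, in each other role, the 2 members furthest each way; in each treatment comparison, the 3 furthest each way. Of each group of the pathway list, up to 3 called genes each way are named, not all with array values. The remaining cofactors found, Akirin2 among them, are named to show the part of the floor. Alternatives were other floors, 3 other scalings, no trend, cell type as the only term, the mean over a gene's probes, and each array left out.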

Additional observations from a re-analysis of the deposited data

Results flagged for a closer look

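For CTC41-EVs against PBS, the median difference of the proteasome genes was -0.19 in platelets and 0.1 in progenitors, opposite in sign. For CTC41.5G-EVs against PBS it was -0.01 and 0.17, where the platelet value is near 0 and was 0.01 with quantile normalization, so it gives no direction. Each of these values compares 1 array with 1 array, and the difference between the cell types was not tested. All genes had medians of -0.06 and 0.04 in the first comparison and 0.01 and 0.13 in the second, and both comparisons share the PBS arrays. With the floor at the 90th percentile, 18 members in platelets and 5 in progenitors had medians of -0.2 and 0.11 in the first comparison. All genes then had -0.14 and 0.12.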

How the results depend on the processing

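The median difference between the cell types stayed above 0 under every alternative run. Members called higher and lower, 14 and 1 as deposited, became 6 and 0 with the floor at the 90th percentile, where fewer genes were tested. They became 23 higher with quantile normalization (median 0.66), 27 with same-median scaling (median 0.74), and 42 higher and 0 lower with olfactory receptor centring (median 1.08). Without 1 array the members called higher ranged from 13 to 17, those called lower from 1 to 2 and the median from 0.25 to 0.39. Leaving out the platelet or the progenitor array of a treatment gives a gene the same estimate, so these runs are not independent. No trend, cell type as the only term and the mean over probes gave 14 and 1. With olfactory receptor centring, genes just below 0 turned and were called higher: Psmb6 0.65, Psmb8 0.64, Psmb9 0.66, Psmc3ip 0.59, Psmc4 0.71, Psmg1 0.64 and Psmg3 0.65. In platelets, CTC41-EVs against PBS had 0 members at least 1.5-fold lower, but 1 (Psma1) with the floor at the 50th percentile, 1 with quantile normalization, 2 (Psma1 and Psma6) with same-median scaling and 1 with olfactory receptor centring. The cause of the changes with scaling was not tested. The treatment term pairs the platelet and progenitor arrays of a treatment, and cell type as the only term is the fit without that pairing. The number of arrays, and signals near background in members such as Psmc6, Psme4 and Psma8, limit these values.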
